A study of Mus musculus with 17 samples.

Results

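Serum response factor (Srf) and the cofactors that it binds were followed across C2C12 lines that express SRF or an SRF fusion. The genes were taken from the deposited table of raw counts by symbol: Srf, the myocardin-related transcription factors Mrtfa and Mrtfb (formerly Mkl1 and Mkl2), myocardin (Myocd), and the ternary complex factors Elk1, Elk3 and Elk4. Of these 7 genes, 6 were among the 15062 genes of the table, and Myocd was not analysed here. C2C12 is a mouse myoblast line grown here in medium with fetal bovine serum. Every group is the same parental line. The pMSCV group carries pMSCV, a retroviral vector, with no named insert and serves as the control, the SRF group expresses SRF, and the other 4 groups express a fusion named SRF-FOXO1, SRF-ICA1L, SRF-PDGFRB or SRF-RELA. The series belongs to a study of SRF fusion oncogenes in myoid tumours of soft tissue. Each group has 3 libraries except SRF-PDGFRB, which has 2, giving 17. Nothing in the labels says whether replicates were separately infected lines, so p-values measure the spread between these samples, which may be technical.

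SRF is a MADS-box transcription factor that binds the CArG box, a short AT-rich element between CC and GG, and has little activity without partners. Myocardin and the MRTFs are coactivators: the MRTFs bind monomeric actin in the cytoplasm and enter the nucleus when actin polymerises, where with SRF they switch on genes of the cytoskeleton and of muscle. The ternary complex factors are ETS proteins that contact SRF and a neighbouring ETS site, respond to growth factor signalling, and drive immediate-early genes such as Egr1. MRTFs and ternary complex factors compete for the same surface of SRF. In skeletal myoblasts SRF is required for growth and for differentiation, and its own gene is a well-known target of SRF.

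The sequence just upstream of Srf is shown because it carries the sites that make Srf a target of its own product. It lies on the minus strand at chr17:46556176-46556325 (GRCm38.p6, from RefSeq), in the promoter directly before the start of the gene that GENCODE annotates. The capitals mark 2 CArG boxes, whose last bases lie 60 and 40 bases before that start:
Srf promoter: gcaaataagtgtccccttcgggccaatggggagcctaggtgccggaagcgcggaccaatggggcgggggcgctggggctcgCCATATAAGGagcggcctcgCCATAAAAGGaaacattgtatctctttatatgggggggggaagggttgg
All 6 genes matched the RefSeq promoter table, with 11 windows of 300 bases in all (250 before a start and 50 after it). The Srf window held both CArG boxes, and the other 10 windows held no match on either strand. Of all 32851 mouse promoter windows of this length, 535 (1.63%) held at least 1 CArG box and 6 (0.018%) held 2 or more. The ETS motif CCGGAAG, searched on both strands, occurred in the Srf window and in 1 of the 3 Elk4 windows, against 8.86% of all windows. These are matches of letters only.

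The 6 genes lie on 6 chromosomes (GRCm38, GENCODE annotation). Srf (ENSMUSG00000015605) spans chr17:46548329-46556175 on the minus strand. Mrtfa (ENSMUSG00000042292) spans chr15:81012281-81190757 (minus strand) and Mrtfb (ENSMUSG00000009569) chr16:13256481-13417529 (plus). Elk1 (ENSMUSG00000009406) lies at chrX:20933395-20950608 (minus), Elk3 (ENSMUSG00000008398) at chr10:93247414-93311135 (minus), and Elk4 (ENSMUSG00000026436) at chr1:132007607-132032612 (plus). Counts refer to whole genes, exons and UTRs together. The largest exon overlap with a neighbour was that of Elk3 with Cdk17 on the opposite strand, 316 bases or 6.9% of the Elk3 exon length. Whether counting used the strand is not given in the sources used here.

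Library totals ran from 20901442 to 23543734 counts, and the smallest count of any of the 6 genes was 518 (Elk1). Spread between libraries and not counting therefore limits these values. Levels are in CPM, library-size-normalised counts corrected by TMM factors (trimmed mean of M values). The myoblast label was checked with Myod1, Myf5, Cdh15, Pax7, Des and Chrna1, all 6 of which were in the table. Their summed level was 1211 to 1668 CPM in pMSCV, 607 to 1228 CPM in SRF, 369 to 967 CPM in SRF-ICA1L, 278 to 607 CPM in SRF-RELA and 164 to 210 CPM in SRF-FOXO1. The SRF-PDGFRB libraries stood apart from each other at 83.1 and 1859 CPM, in replicates 1 and 2. The most abundant of them, Des and Cdh15, ranged from 44.5 to 892 CPM and from 13.0 to 412 CPM over all libraries. Differentiating muscle markers (6 of 7 in the table, led by Myh3 and Myog) summed to 83.2 to 131 CPM in pMSCV, 1.79 and 302 CPM in SRF-PDGFRB and 3.28 to 40.3 CPM in the other lines. Fibroblast and mural cell markers (4 of 6, led by Cspg4 and Pdgfra) summed to 55.6 to 108 CPM in pMSCV and, without overlap, to 117 to 153 CPM in SRF-FOXO1. They summed to 56.4 to 94.8 CPM in SRF, 77.7 to 142 CPM in SRF-ICA1L, 89.8 to 171 CPM in SRF-RELA and 62.4 and 102 CPM in SRF-PDGFRB. Of 4 blood and endothelial markers, only Cd68 and Cdh5 were in the table, at a sum of 2.05 to 6.08 CPM. The part of these marker differences in the results below was not tested, and in bulk RNA fewer cells of a type and less RNA per cell cannot be told apart.

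Srf was 13.9-fold higher in the SRF line than in the vector control, and the level varied widely between the SRF libraries. In pMSCV, Srf stood at 66.6, 93.8 and 83.4 CPM in replicates 1 to 3. In the SRF line it stood at 1673, 678 and 1033 CPM, a 2.47-fold range from the lowest to the highest library. All 3 SRF libraries lay above every other library of the series. The log2 fold change against pMSCV was 3.79 (SE 0.38), with a 95% interval for the fold of 7.87 to 24.5. The adjusted p was 0.00158 (edgeR, quasi-likelihood F-test, Benjamini-Hochberg over all genes). Srf was the 1 gene called at an adjusted p under 0.05 in this comparison, 0.00664% of the genes tested. With only the SRF and pMSCV libraries in the fit, the log2 fold change was 3.78 and edgeR's adjusted p was 0.258. How many reads of the construct count towards the mouse gene was not tested, so the level is that of all reads assigned to Srf.

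In the fusion lines, Srf levels lay nearer to those of pMSCV. In SRF-ICA1L it stood at 279, 176 and 121 CPM, all 3 libraries above the pMSCV libraries. In SRF-RELA it stood at 155, 137 and 85.0 CPM, of which the first 2 lay above pMSCV and the last within its range. In SRF-FOXO1 the libraries held 105, 84.1 and 71.8 CPM, overlapping pMSCV. In SRF-PDGFRB they held 70.5 and 81.4 CPM, both within the range of pMSCV and close to each other although their myoblast markers were not. The order of the means was SRF (1128 ± 504 CPM), SRF-ICA1L (192 ± 80.4), SRF-RELA (125 ± 36.1), SRF-FOXO1 (87.1 ± 16.98), pMSCV (81.3 ± 13.7) and SRF-PDGFRB (76.0 ± 7.73, SD, n = 2, with n = 3 in the other groups). Of these neighbours, only SRF and SRF-ICA1L did not overlap.

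**Figure D1:**
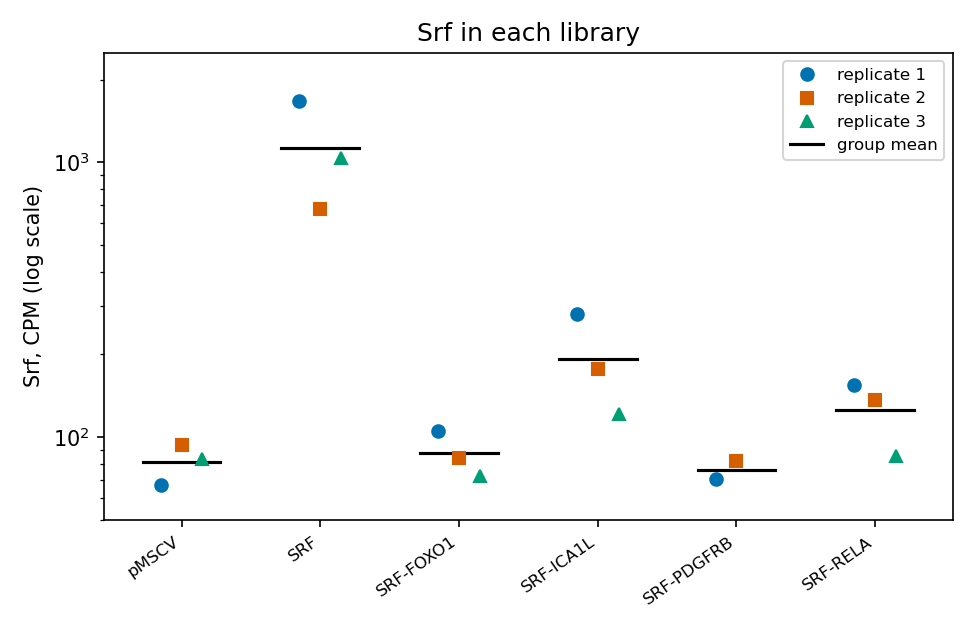
Srf in CPM on a log axis in each of 17 libraries, by line; points are libraries, marked by replicate number, and bars are group means. The 3 SRF libraries sit between 678 and 1673 CPM, and the 3 SRF-ICA1L libraries between 121 and 279 CPM, above the pMSCV libraries at 66.6 to 93.8 CPM.

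No fusion line passed the test for Srf against pMSCV. In SRF-ICA1L the log2 fold change was 1.24 (SE 0.35), or 2.37-fold with an interval of 1.41 to 3.96. Its unadjusted p was 0.00304 and its adjusted p 0.662 by edgeR, in a comparison where 0% of genes were called. A replicate block was fitted in the 12 libraries of 4 lines whose numbers pair (pMSCV, SRF-ICA1L, SRF-RELA and SRF). There the value was 1.14 with an edgeR adjusted p of 0.0816. In SRF-RELA it was 0.63 (interval -0.11 to 1.36, adjusted p 0.693 by edgeR), where again 0% of genes were called. In SRF-FOXO1 it was 0.10 (interval -0.63 to 0.84), where 0.71% of genes were called, and in SRF-PDGFRB -0.10 (interval -0.92 to 0.73), where 0.0199% were called. The intervals leave room for changes in either direction in the last 3 lines. These 5 comparisons share the pMSCV libraries.

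Every fusion library lay below every library of the SRF line in Srf, and 3 of the 4 differences were called by edgeR. The log2 fold change was -3.69 in SRF-FOXO1 (SE 0.38, adjusted p 0.00207), where 0.00664% of genes were called. In SRF-PDGFRB it was -3.89 (SE 0.46, adjusted p 0.00496), where 0.0531% were called. Without SRF-PDGFRB replicate 1 it was -3.81 with an adjusted p of 0.123, and without replicate 2 it was -4.0 with an adjusted p of 0.0551, by edgeR. In SRF-RELA it was -3.17 (SE 0.37, adjusted p 0.00986), where 0.00664% were called. The SRF-RELA call was lost without any 1 of its 3 libraries, with edgeR adjusted p from 0.0561 to 0.113. The log2 fold change stayed between -3.34 and -2.95. In SRF-ICA1L it was -2.55 (SE 0.36, adjusted p 0.0643 by edgeR), where 0% were called. With the replicate block in the 12 libraries this last difference was -2.57 and was called (edgeR adjusted p 0.0218), as it was without SRF replicate 2 (-2.82, adjusted p 0.0312). In the 6 comparisons between fusion lines Srf was not called, with log2 fold changes from -1.14 (SRF-FOXO1 against SRF-ICA1L, unadjusted p 0.00532 by edgeR) to 1.34 (SRF-ICA1L against SRF-PDGFRB, unadjusted p 0.00481). The share of genes called in these comparisons was 0% for SRF-FOXO1 with SRF-ICA1L, SRF-FOXO1 with SRF-RELA and SRF-ICA1L with SRF-RELA. It was 0.0266% for SRF-FOXO1 with SRF-PDGFRB, 0.0332% for SRF-ICA1L with SRF-PDGFRB and 0.00664% for SRF-PDGFRB with SRF-RELA.

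Same-numbered libraries gave unequal folds. Over the pMSCV library of the same number, Srf in the SRF line was 25.1, 7.23 and 12.4 times as high in numbers 1, 2 and 3. In SRF-ICA1L the ratios were 4.19, 1.88 and 1.45, and in SRF-RELA 2.32, 1.46 and 1.02. In all 3 lines the ratio was highest for number 1, where the pMSCV library was the lowest of its group and the library of the line the highest of its own.

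The MRTFs showed no called difference in any comparison. Mrtfa, the actin-binding coactivator MRTF-A, stood at 68.9, 72.1 and 130 CPM in pMSCV and at 73.3, 97.6 and 111 CPM in SRF. In SRF-ICA1L Mrtfa held 87.1, 85.1 and 106 CPM, in SRF-RELA at 87.2, 85.2 and 116 CPM, in SRF-FOXO1 at 92.5, 104 and 90.9 CPM, and in SRF-PDGFRB at 102 and 94.1 CPM. Every line overlapped pMSCV, and the 6 group means lay between 90.2 and 97.9 CPM. The log2 fold changes of Mrtfa against pMSCV were 0.04 to 0.12, and their 95% intervals reached from -0.45 to 0.67.

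Mrtfb, which encodes the related coactivator MRTF-B, was on average lowest in pMSCV. It stood at 53.0, 59.8 and 54.8 CPM there and at 58.4, 76.4 and 54.9 CPM in SRF. In SRF-ICA1L it stood at 80.1, 93.6 and 58.1 CPM, where the first 2 libraries lay above the pMSCV range and the last inside it. In SRF-RELA it stood at 62.1, 79.7 and 53.6 CPM, in SRF-FOXO1 at 76.2, 72.7 and 52.5 CPM, and in SRF-PDGFRB at 65.9 and 50.8 CPM. The log2 fold change in SRF-ICA1L was 0.47 (SE 0.21, 1.38-fold, interval 1.01 to 1.90). Its unadjusted p was 0.0461 and its adjusted p 0.796 by edgeR, and with the replicate block in 12 libraries edgeR's adjusted p was 0.0759. It was the 1 of 25 cofactor values against pMSCV with an unadjusted p under 0.05. Over all 15062 genes, 503 (SRF) to 3151 (SRF-FOXO1) had such a p by line.

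Among the ternary complex factors, Elk3 (Net), which can repress as well as activate, was the highest per exon length. It stood at 134, 107 and 157 CPM in pMSCV and at 139, 135 and 152 CPM in SRF. In SRF-FOXO1 the 3 libraries were close together at 105, 107 and 102 CPM, at the lower edge of pMSCV. In SRF-PDGFRB they held 87.8 and 119 CPM, in SRF-ICA1L 130, 99.6 and 144 CPM, and in SRF-RELA 128, 106 and 153 CPM. Against pMSCV the log2 fold change was -0.34 in SRF-FOXO1 (interval -0.74 to 0.06) and -0.36 in SRF-PDGFRB (interval -0.81 to 0.09). Against SRF the values were -0.44 (unadjusted p 0.0331, adjusted p 0.234, edgeR) and -0.46 (unadjusted p 0.0463, adjusted p 0.910, edgeR).

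Elk1, the classical ternary complex factor, was the lowest of the 6 genes per exon length on average over the 17 libraries, though not in each of them. It stood at 38.2, 31.6 and 29.6 CPM in pMSCV, 37.3, 39.2 and 30.8 CPM in SRF and 25.4, 31.9 and 26.4 CPM in SRF-RELA. The SRF-RELA libraries overlapped both groups. The other 3 lines lay between 26.3 and 35.3 CPM. The log2 fold change of SRF-RELA was -0.25 against pMSCV (interval -0.60 to 0.10) and -0.36 against SRF (unadjusted p 0.0454, adjusted p 0.975, edgeR).

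Elk4 (SAP-1) stood at 38.1, 59.2 and 45.9 CPM in pMSCV, 44.3, 49.0 and 46.8 CPM in SRF and 43.1, 67.6 and 55.1 CPM in SRF-RELA. The other 3 lines lay between 47.7 and 60.8 CPM. Every line overlapped pMSCV. Its log2 fold changes against pMSCV ran from -0.03 (SRF) to 0.21 (SRF-RELA), and all 5 intervals included 0.

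**Figure D2:**
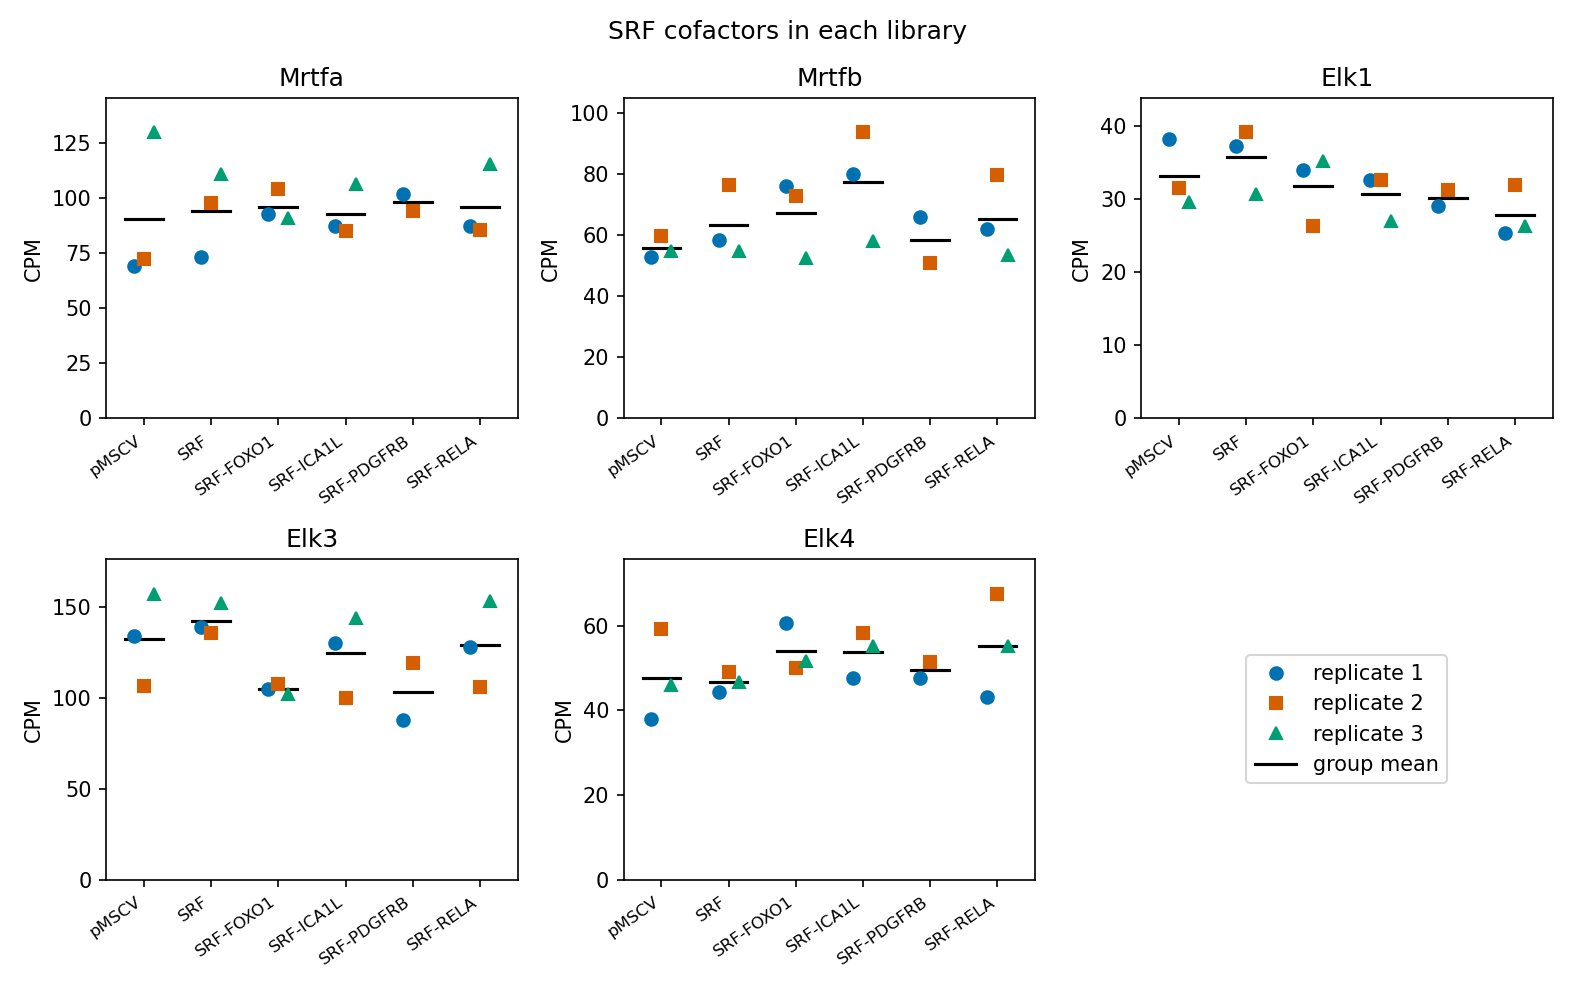
The 5 cofactors in CPM on axes that start at 0, in each of 17 libraries by line; points are libraries, marked by replicate number, and bars are group means. Each line overlaps pMSCV for each cofactor, and the number 3 libraries of all lines but SRF-FOXO1 and SRF-PDGFRB are the highest of their line in Mrtfa and Elk3.

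Over the 5 cofactors and 15 comparisons, 0 of 75 values were called by edgeR's quasi-likelihood test, 4 had an unadjusted p under 0.05, and DESeq2 called none either. Calls were rare over all genes as well, at 0% to 0.71% by comparison in edgeR. There, 24 (SRF-ICA1L against SRF-RELA) to 3151 (SRF-FOXO1 against pMSCV) of 15062 genes had an unadjusted p under 0.05. Against pMSCV, DESeq2 called 0.0266% to 9.07% of all genes. The cofactor fold changes lay between -0.46 and 0.47 on the log2 scale, and their 95% intervals did not reach beyond -0.91 and 0.93. From the lowest to the highest of the 17 libraries the cofactors varied 1.55-fold (Elk1) to 1.88-fold (Mrtfa). Srf varied 25.1-fold, and 4.19-fold without the SRF line. A joint edgeR test over the 6 groups gave an adjusted p of 0.000215 for Srf and 0.809 or more for the cofactors, where 0.0797% of genes were called. With the replicate block in 12 libraries the joint test gave 0.00124 for Srf and 0.189 or more for the cofactors, where 3.5% of genes were called. By library ranges, Srf alone of the 6 genes was clear of pMSCV, in SRF (9.16% of all genes) and in SRF-ICA1L (10.2%). In SRF-FOXO1, SRF-PDGFRB and SRF-RELA none of the 6 was, against 23.0%, 15.9% and 11.1% of all genes.

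**Figure D3:**
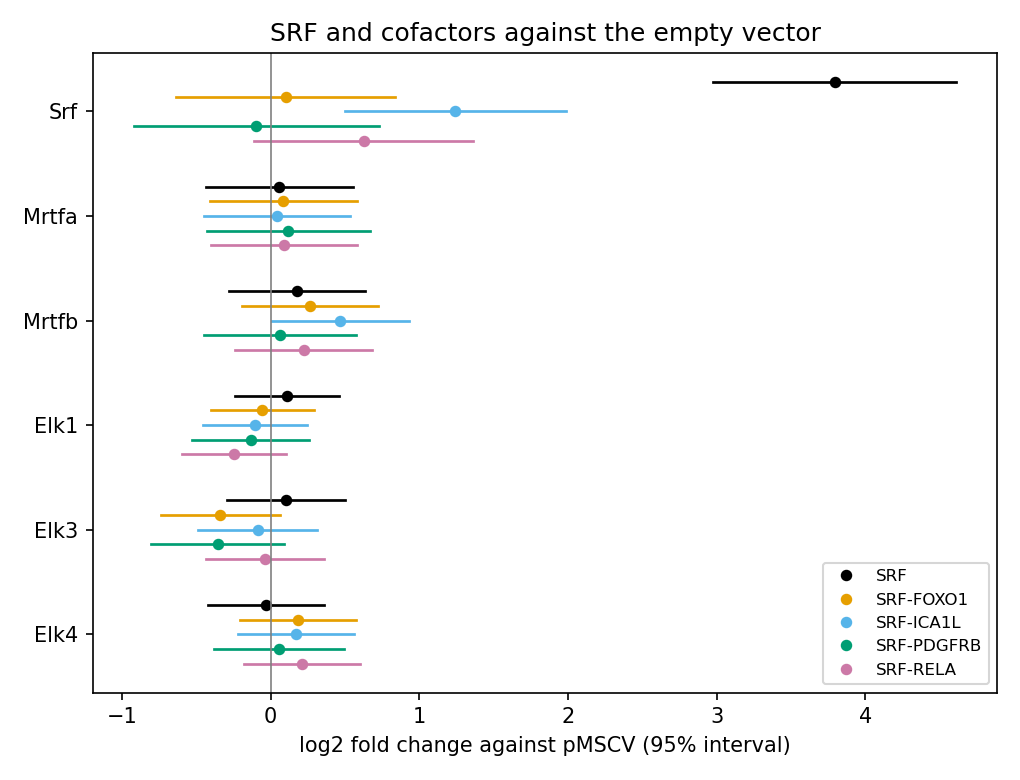
Log2 fold change of each gene in each line against pMSCV, with 95% intervals from edgeR; the vertical line marks no change. Srf in the SRF line stands at 3.79, and every cofactor value lies between -0.36 and 0.47.

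The balance between SRF and its partners was read per exon length, in CPM per kilobase, so that levels of different genes can be set side by side. The full exon length of mouse Srf was used in every line. Which part of Srf the constructs carry and how many of their reads count towards it is not known, so the Srf level and its ratios in the SRF and fusion lines are those of all reads assigned to the gene. Over the 17 libraries, Elk3 averaged 27.2 CPM per kilobase, Mrtfa 15.4, Elk4 8.01, Mrtfb 7.22 and Elk1 5.89. In pMSCV, Srf was at 28.1 ± 4.73 CPM per kilobase (SD, n = 3), near the level of Elk3, and in the SRF line it was at 390 ± 174 (SD, n = 3). Elk3 supplied 58.5% to 73.2% of the summed ternary complex factor level in every library. Mrtfa was 1.34 to 3.48 times Mrtfb in every library.

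The ratio of Srf to its partners moved with Srf. The ratio of Srf to the MRTF sum was 1.06 to 1.76 in pMSCV and 9.58 to 31.3 in SRF. In SRF-ICA1L it was 1.76 to 4.17, in SRF-FOXO1 1.16 to 1.54, in SRF-RELA 1.18 to 2.52 and in SRF-PDGFRB 1.02 to 1.34. The ratio of Srf to the ternary complex factor sum was 0.543 to 0.842 in pMSCV and 5.25 to 13.0 in SRF. The MRTF sum itself stayed between 17.2 and 27.3 CPM per kilobase and the ternary complex factor sum between 32.1 and 47.2. These are RNA levels, which do not show protein amounts or the location of the MRTFs.

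**Figure D4:**
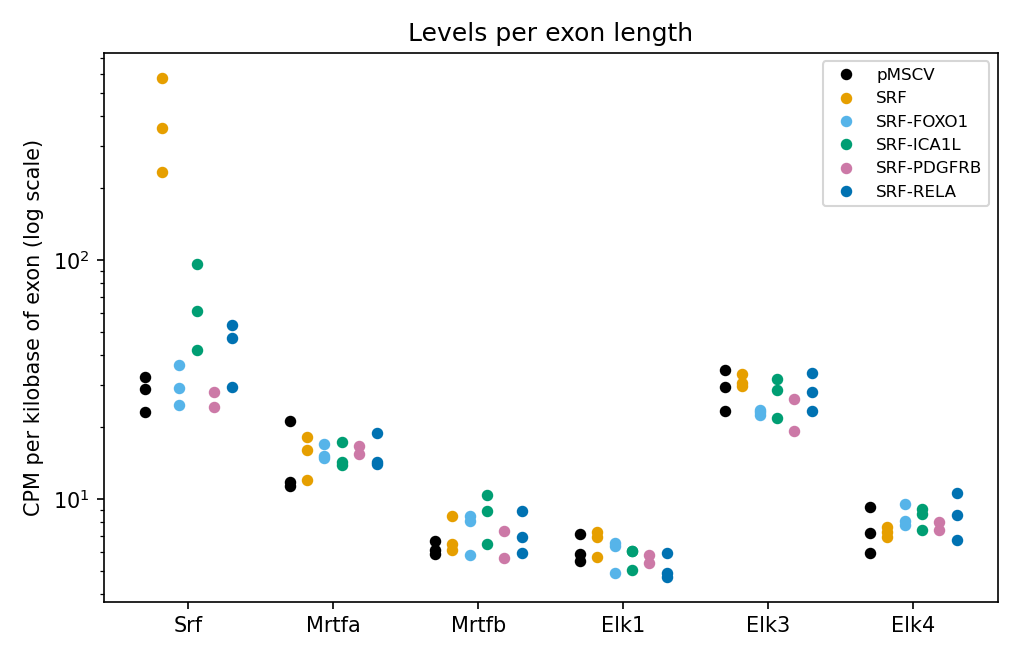
CPM per kilobase of exon on a log axis for each gene, with 1 point per library coloured by line. Srf and Elk3 are the highest of the 6 genes in each library, and Elk1, Elk4 and Mrtfb lie between 4.71 and 10.6 CPM per kilobase.

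In the 12 libraries whose numbers pair, replicate number held more of the variance than group in 4 of the 5 cofactors, all but Elk1. Number 3 was highest in Mrtfa in 4 of 4 lines, at 106 to 130 CPM against 68.9 to 97.6 CPM in numbers 1 and 2. Elk3 was highest in number 3 and lowest in number 2 in 4 of 4 lines. Mrtfb was highest in number 2 in 4 of 4 lines, and Elk4 was highest in number 2 and lowest in number 1 in 4 of 4. Replicate number held 74.8% of the variance of log2 CPM in Mrtfa, 75.5% in Elk3, 62.0% in Elk4, 51.5% in Mrtfb and 31.1% in Elk1, against 2.97% in Srf. Group held 91.9% in Srf and 3.39% (Mrtfa) to 45.4% (Elk1) in the cofactors. Over all genes the medians were 49.7% for replicate number and 19.6% for group. With group in the fit, edgeR called replicate number for Mrtfa (adjusted p 0.00727), Elk3 (0.00742), Mrtfb (0.0127) and Elk4 (0.0159), and not for Srf (0.143) or Elk1 (0.145). That is 4 of 6 genes, where 52.0% of all genes were called, so the share is near that of all genes tested. These 12 libraries were picked because same-numbered libraries went together across genes in these data. The orders, shares and calls by number therefore partly restate that choice. In SRF-FOXO1, which was left out, number 3 was the lowest in Mrtfa (90.9 CPM) and Elk3 (102 CPM). Number 1 was its highest in Elk4 (60.8 CPM). What the numbers stand for is not given in the labels.

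The genes whose pattern was most like each member were ranked by Pearson correlation of log2 CPM among 10072 genes with a mean of at least 5 CPM. The points are 17 libraries that share groups and replicate numbers, and the values are descriptions. For Srf the leading genes were Fam174c (r = 0.80, Spearman's coefficient = 0.46), Pex5 (r = 0.73, Spearman = 0.61) and Gask1b (r = 0.73, Spearman = 0.81). The SRF libraries weigh heavily on these values. Over the 14 libraries outside the SRF line, the leading gene was Tpm1 (r = 0.86, Spearman = 0.88), which encodes an actin-binding tropomyosin. It was followed by Furin, a proprotein convertase (r = 0.86, Spearman = 0.74), and Ptpn1, a protein tyrosine phosphatase (r = 0.83, Spearman = 0.89).

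Tpm1 held 676, 1099 and 980 CPM in pMSCV and 957, 1058 and 1320 CPM in SRF. It held 1607, 1259 and 1163 CPM in SRF-ICA1L and 1521, 1406 and 953 CPM in SRF-RELA. As with Srf, number 1 was the highest in these last 2 lines and the lowest in pMSCV, while in SRF it was the lowest library and not the highest. Tpm1 was picked for its correlation with Srf, so a shared order follows partly from that choice. The order differed from that of Srf in SRF-FOXO1 (1028, 1177 and 868 CPM) and in SRF-PDGFRB (999 and 898 CPM). Tpm1 was not called in any line against pMSCV, with edgeR adjusted p from 0.5997 to 0.991.

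Elk3 went with Nkrf (r = 0.94), Pold2 (r = 0.94), a subunit of DNA polymerase delta, and Hnrnpa1 (r = 0.94), an RNA-binding protein. Mrtfa went with Heatr6 (r = 0.93), Hdac10 (r = 0.89) and Kmt2d (r = 0.88), a histone methyltransferase. Elk4 went with Cblb (r = 0.90), Stat5a (r = 0.89) and Nid2 (r = 0.89). Mrtfb went with Mnt (r = 0.90), Irak2 (r = 0.86) and Atp6v0a1 (r = 0.84), and Elk1 with Tbcel (r = 0.81), Pafah2 (r = 0.74) and Eps15 (r = 0.72). Between members the strongest correlation was that of Mrtfa with Elk1 (r = -0.54, Spearman = -0.57), over 17 libraries.

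Upstream of the MRTFs, 18 of 19 listed genes of actin dynamics and its regulators were in the table. EdgeR called 1 of them against pMSCV, in SRF-FOXO1, where 0.71% of all genes were called. DESeq2 called 4 there (Pfn2 and Rock1 higher, Rhob and Rhoa lower; Rock1 and Rhoa are named after their values were seen), where it called 9.07% of all genes, and none in the other lines. Rhob, a small GTPase of endosomes, was lower in SRF-FOXO1, at 191, 263 and 109 CPM against 440, 527 and 467 CPM in pMSCV. The groups did not overlap, and the log2 fold change was -1.35 (SE 0.27, adjusted p 0.0405, edgeR). Without pMSCV replicate 1 or 3, or SRF-FOXO1 replicate 1 or 3, the value lay between -1.41 and -1.07 and the call was lost (edgeR adjusted p 0.087 to 0.151). It was also lost with only the 2 groups in the fit (-1.36, adjusted p 0.116), and DESeq2 made it (adjusted p 0.00029). In SRF-ICA1L Rhob held 290, 271 and 266 CPM and in SRF-RELA 336, 286 and 257 CPM, all below pMSCV. The SRF libraries (339, 332 and 310 CPM) and the SRF-PDGFRB libraries (216 and 396 CPM) also lay below every pMSCV library. All lines are set against the same pMSCV libraries here. By line, 9.16% (SRF) to 23.0% (SRF-FOXO1) of all genes were clear of pMSCV in either direction. With the replicate block in 12 libraries the differences in SRF-ICA1L and SRF-RELA were called by edgeR, at -0.79 (adjusted p 0.0110) and -0.70 (adjusted p 0.00849). In that fit 2.99% of genes were called in SRF-ICA1L and 6.48% in SRF-RELA against pMSCV. The block also called Pfn2, a profilin that binds monomeric actin, higher in SRF-RELA (0.61, adjusted p 0.0499, edgeR). The most abundant genes of the list were Cfl1, which severs actin filaments (mean 1534 CPM in pMSCV and 1541 CPM in SRF), and Pfn1 (892 and 945 CPM).

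Of 11 other nuclear partners of SRF, 8 were in the table and none was called by edgeR or DESeq2 against pMSCV. By edgeR 1 of their 40 values had an unadjusted p under 0.05, beside 503 (SRF) to 3151 (SRF-FOXO1) of all 15062 genes by line. The most abundant of the 8 were Fhl1 (mean 416 CPM in pMSCV) and Csrp1 (372 CPM), both LIM-domain proteins of muscle.

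Downstream, none of the 28 MRTF-type targets, genes of the actin cytoskeleton and smooth muscle, was called by edgeR in any line against pMSCV. Of 140 values, 23 had an unadjusted p under 0.05 by edgeR. By line these were 2 of 28 in SRF, where 503 of all 15062 genes had such a p, and 7 in SRF-RELA (1212 genes). There were 6 in SRF-ICA1L (938 genes), 7 in SRF-FOXO1 (3151 genes) and 1 in SRF-PDGFRB (1160 genes). The 28 values of a line share libraries and are not separate results. DESeq2 called 5 values, all higher: Lmod1 in SRF-FOXO1, Tagln in SRF-ICA1L, and Tagln, Lmod1 and Cnn1 (named after its values were seen) in SRF-RELA. The share of genes that DESeq2 called was 9.07% in SRF-FOXO1, 0.501% in SRF-PDGFRB, 0.712% in SRF-RELA, 0.324% in SRF-ICA1L and 0.0266% in SRF. In the SRF line, where Srf was 13.9-fold higher, the list's median log2 fold change was 0.07 with 15 of 28 above 0, beside a median of -0.02 over all genes. In the fusion lines the medians were 0.19 in SRF-FOXO1 (17 of 28 above 0), 0.28 in SRF-RELA (21 of 28), 0.20 in SRF-ICA1L (19 of 28) and -0.04 in SRF-PDGFRB (14 of 28), beside all-gene medians of 0.00 to 0.01 in size. The most abundant targets, Actb and Flna, averaged 3202 and 2366 CPM in pMSCV and 3069 and 2723 CPM in SRF.

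With the replicate block in 12 libraries, 0 of 28 MRTF-type targets were called in SRF, where 0.0137% of genes were, 2 in SRF-ICA1L (2.99% of all genes) and 3 in SRF-RELA (6.48%), all higher. Tagln, the smooth muscle protein SM22, was called in both fusion lines (2.497, adjusted p 0.0278, and 2.10, adjusted p 0.0323, edgeR). Its levels were low throughout, at 0.23 to 0.66 CPM in pMSCV, 2.29 to 3.90 CPM in SRF-ICA1L and 1.35 to 2.83 CPM in SRF-RELA. Neither line overlapped pMSCV. Tagln also lay above every pMSCV library in SRF (0.82 to 1.92 CPM), SRF-FOXO1 (0.70 to 0.94 CPM) and SRF-PDGFRB (0.83 and 0.85 CPM). By line, 9.16% (SRF) to 23.0% (SRF-FOXO1) of all genes were clear of pMSCV in either direction. Cald1, the actin-binding caldesmon, was called in SRF-ICA1L (0.72, adjusted p 0.0337, edgeR), at 1013, 1112 and 1030 CPM against 459, 729 and 791 CPM in pMSCV. Cald1 also lay above every pMSCV library in SRF-RELA (803 to 1036 CPM), SRF-FOXO1 (853 to 1032 CPM) and SRF-PDGFRB (895 and 899 CPM). It overlapped them in SRF (676.5 to 1036 CPM). Lmod1, a smooth muscle leiomodin, and Tpm2, a tropomyosin, were called in SRF-RELA (3.48, adjusted p 0.0315, and 0.48, adjusted p 0.0471, edgeR). Lmod1 stood at 19.2, 57.4 and 10.4 CPM there, against 0.23, 5.25 and 3.18 CPM in pMSCV. In SRF-FOXO1, which lay outside this fit, Lmod1 held 32.2, 29.35 and 37.3 CPM (3.51, adjusted p 0.0579, edgeR with all libraries). In SRF-ICA1L it held 14.5, 24.4 and 12.6 CPM, also above every pMSCV library. Lmod1 overlapped pMSCV in SRF (3.23 to 19.2 CPM) and in SRF-PDGFRB. Tpm2 held 423, 536 and 354 CPM in SRF-RELA, 448, 514 and 433 CPM in SRF-FOXO1, and 267, 373 and 308 CPM in pMSCV.

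The 12 TCF-type targets, immediate-early genes, were not called by edgeR or DESeq2 in any line against pMSCV. By edgeR 2 of their 60 values had an unadjusted p under 0.05, beside 503 (SRF) to 3151 (SRF-FOXO1) of all 15062 genes by line. The median log2 fold change of the 12 targets was -0.21 in SRF with 3 of 12 above 0, and 0.68 in SRF-RELA with 12 of 12 above 0. Over all genes the medians ran from -0.02 (SRF) to 0.01 (SRF-PDGFRB) by line. The 12 values of a line come from the same libraries and are not separate results. With the replicate block in 12 libraries the direction in SRF turned, to a median of 0.03 with 7 of 12 above 0, and SRF-RELA had 0.77 with 11 of 12 above 0. Without the block, in all 17 libraries, the median was 0.44 in SRF-ICA1L, 0.03 in SRF-FOXO1 and 0.15 in SRF-PDGFRB. The most abundant of these genes, Egr1 and Junb, followed the replicate number. Egr1, a zinc-finger factor induced by serum, held 520, 1818 and 84.7 CPM in pMSCV and 981, 1576 and 127 CPM in SRF. It held 1195, 2717 and 215 CPM in SRF-ICA1L and 1894, 3150 and 176 CPM in SRF-RELA, so that number 2 was the highest and number 3 the lowest in all 4 lines. Junb showed the same order in these 4 lines, from 326, 1354 and 134 CPM in pMSCV to 962, 2443 and 233 CPM in SRF-RELA.

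With the replicate block, edgeR called Egr1 higher than pMSCV in SRF-ICA1L (1.03, adjusted p 0.0391) and SRF-RELA (1.24, adjusted p 0.0115), and Junb, a component of AP-1, in SRF-RELA (1.07, adjusted p 0.0161). Egr4 was called in both lines (adjusted p 0.00307 and 0.000995, edgeR). It had 0 to 3 counts in the pMSCV libraries and 0 to 6 in the SRF libraries, so its fitted fold changes against either are not given. It stood at 2.65, 4.11 and 0.09 CPM in SRF-ICA1L and at 3.92, 7.71 and 0.05 CPM in SRF-RELA, near 0 in number 3 of both. Against the SRF line the block called Egr4 higher in SRF-ICA1L (adjusted p 0.0218, edgeR) and in SRF-RELA (adjusted p 0.00625), and Tpm2 higher in SRF-RELA (0.67, adjusted p 0.0430). In those comparisons 0.0956% and 0.656% of genes were called, and 0% between SRF-ICA1L and SRF-RELA. Beside these calls, the block called 4 of 6 myoblast markers lower than pMSCV in SRF-ICA1L and 5 of 6 in SRF-RELA. Of all genes it called 2.99% and 6.48% there. Cdh15, the cadherin of muscle progenitors, was at -1.41 and -1.995 in these 2 lines (adjusted p 0.0115 and 0.00209, edgeR). In SRF-FOXO1, outside this fit, Cdh15 was at -3.64 (adjusted p 0.0531, edgeR with all libraries). The median of the 6 markers was -2.88 there. The part of the marker change in the target values was not tested.

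**Figure D5:**
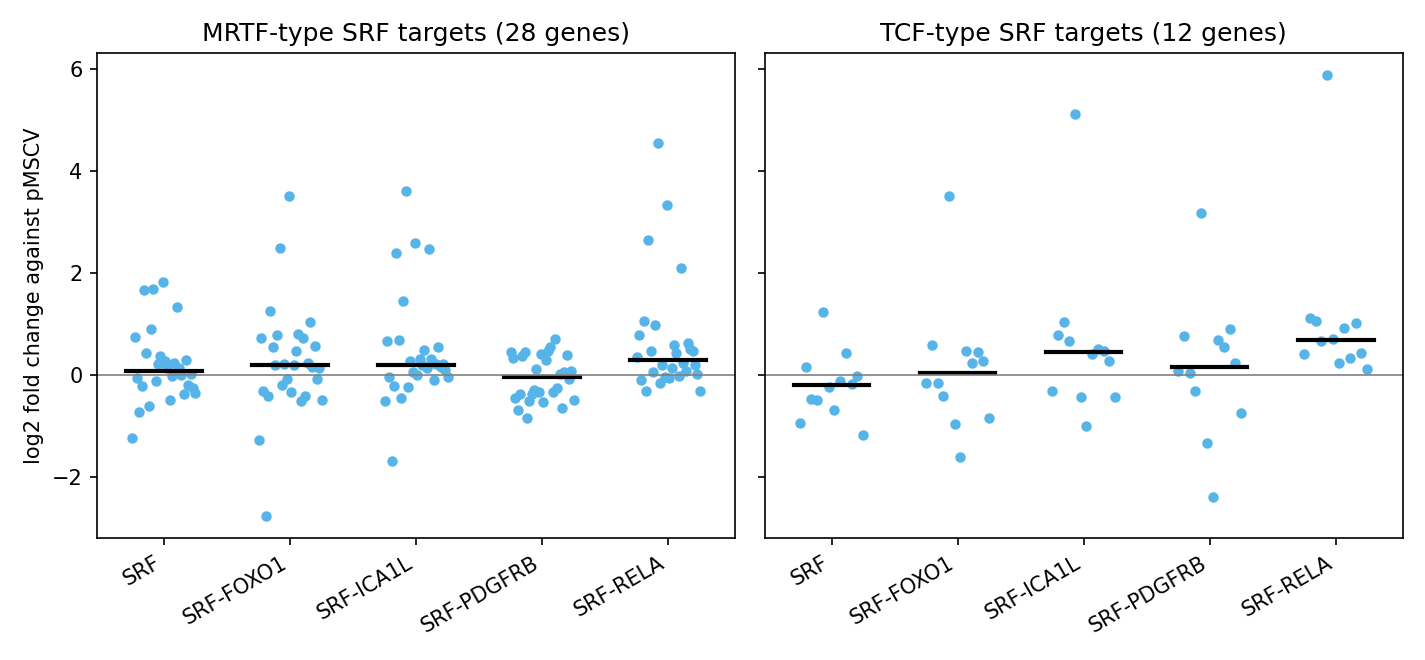
Log2 fold change against pMSCV of each MRTF-type target (28 genes) and each TCF-type target (12 genes) by line, from edgeR with all 17 libraries; points are genes and bars are list medians. In SRF the medians are 0.07 and -0.21 (the latter 0.03 with the replicate block in 12 libraries), and in SRF-RELA 0.28 and 0.68, where 12 of 12 TCF-type targets lie above 0 (11 of 12 with the block).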

How the data were processed

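RNA was taken from C2C12 cultures, treated with DNase and made into libraries with a stranded kit for polyadenylated RNA, per the labels' protocols. Reads were processed with FastQC 0.11.8, Trimmomatic 0.39, HISAT2, and featureCounts from Subread 2.0.0, with build GRCm38, per the submitters' processing notes. The annotation and strand setting are not given in the sources used here. The authors deposited raw counts per gene in 1 table, which holds only genes with 10 or more counts in 3 or more libraries. Columns without a sample numbered 0. Rows with no symbol in the table held 0.555% to 1.13% of a library's counts and stayed in the tests by gene identifier.

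Counts were scaled by TMM and tested with edgeR 4.0.16 (limma 3.58.1, R 4.3.3): quasi-likelihood with robust dispersions, all 17 libraries in 1 fit, a term for group, Benjamini-Hochberg adjustment over 15062 genes, calls at an adjusted p under 0.05. Intervals are 95%. The script was tested on simulated data. Alternatives were other scalings and low-count filters, DESeq2 1.42.0, a replicate block, fewer groups, and each library left out. The joint tests and a block within pairs of groups with SRF-FOXO1 were added after the data had been seen.

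Replicate numbers come from the titles. In pMSCV, SRF-ICA1L, SRF-RELA and SRF, deviations of same-numbered libraries from their group means correlated at 0.392 to 0.789 across genes. Those of other pairs correlated at 0.114 or less. Deviations within a group cancel out, so positive values of same-numbered pairs push those of other pairs down. From the same-numbered values, these 12 libraries were also fitted with a replicate block (14639 genes after filtering), a choice made on these same data. No pair of libraries within a group agreed within sampling noise.

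The 7 genes, the lists beside them (general knowledge) and the tests were chosen with earlier results of these data known. Named are all members, list genes called in the edgeR fit of all libraries or with the block in 12 libraries (at most 3 per list and comparison), the 2 most abundant genes of each list, and the 3 genes most correlated with each member. Differentiating muscle, fibroblast and mural markers were measured as well. By edgeR with all libraries none was called against pMSCV. With the block 2 of 6 differentiating markers (Myh3 and Myog) were called lower in SRF-ICA1L and 3 of 6 (these and Mymk) in SRF-RELA. In that fit 2.99% of all genes were called in SRF-ICA1L and 6.48% in SRF-RELA. A list of signalling genes is not reported here. Gene positions are from GENCODE, promoters from RefSeq.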

Additional observations from a re-analysis of the deposited data

How the results depend on the processing

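The log2 fold change of Srf in SRF against pMSCV lay between 3.40 and 4.06 when 1 library was left out and between 3.71 and 3.80 under the other settings, and was called in all of them but one. With only the 2 groups compared in the fit it was 3.78 and 0 of the 6 genes were called there, and likewise 0 for SRF-RELA or SRF-PDGFRB against SRF. SRF-RELA against SRF also gave 0 with 12 libraries and no block. In SRF-ICA1L against SRF, 1 gene (Srf) was called with the replicate block in 17 libraries, with the replicate block in 12 libraries and with DESeq2, and 0 to 1 with a library left out. Leaving out a library gave 0 to 1 calls for SRF-RELA and SRF-PDGFRB against SRF as well. Of 355 cofactor values against pMSCV under all alternatives 0 were called and 27 changed sign, 26 of them with a library left out; the other was Mrtfb in SRF-PDGFRB, -0.0537 with the replicate block in 17 libraries. The replicate block changed no other call of the 6 genes; Srf in SRF against pMSCV was 3.72 and 3.706 in the paired fits of 17 and 12 libraries.

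Leaving out 1 library, these uncalled log2 fold changes against pMSCV crossed 0. Srf ran from -0.0605 to 0.222 in SRF-FOXO1 and from -0.22 to 0.0086 in SRF-PDGFRB. Mrtfa ran from -0.10 to 0.41 in SRF, -0.0752 to 0.442 in SRF-FOXO1, -0.12 to 0.40 in SRF-ICA1L, -0.0435 to 0.474 in SRF-PDGFRB and -0.0719 to 0.445 in SRF-RELA. Mrtfb ran from -0.15 to 0.24 in SRF-PDGFRB. Elk1 ran from -0.135 to 0.0655 in SRF-FOXO1 and -0.18 to 0.0086 in SRF-ICA1L. Elk3 ran from -0.0398 to 0.243 in SRF, -0.231 to 0.0532 in SRF-ICA1L and -0.18 to 0.10 in SRF-RELA. Elk4 ran from -0.17 to 0.15 in SRF and -0.0843 to 0.229 in SRF-PDGFRB. Where 1 library is left in SRF-PDGFRB, it is assumed to vary like the other groups. The spread between 2 or 3 libraries, not depth, limits these values.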
